A study of Mus musculus with 12 samples.

Results

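Interleukin-10 and the interleukin-12 family are cytokines that macrophages release after meeting bacterial products, and 8 genes of the family were followed here: the cytokine subunit genes Il10, Il12a, Il12b, Il23a, Il27 and Ebi3, and the receptor chain genes Il10ra and Il10rb. They were taken by symbol from a table of 24421 genes, and all 8 were found in it. The table came from mRNA sequencing of RAW 264.7 cells, a mouse macrophage line of BALB/c origin, in 12 libraries of 6 groups with 2 libraries each. Parp14 -/- cells, which carry a disrupted gene for an ADP-ribosyltransferase that takes part in interferon-inducible responses, were measured after LPS for 2 h and untreated. Wild-type cells were measured after LPS with a Jak inhibitor, with the Jak inhibitor alone, after LPS alone and untreated. LPS is the lipopolysaccharide of Gram-negative bacteria, and a Jak inhibitor blocks the kinases by which interferon and many cytokine receptors signal. All groups share the cell line and no knockout group with the inhibitor was analysed. Which inhibitor was used, at what dose, and from how many clones the Parp14 -/- cells came is not stated in the labels. In what follows KO stands for Parp14 -/- and WT for wild type.

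The family works through shared parts. IL-10 is a homodimer that binds IL-10RA together with IL-10RB, and in macrophages it restrains inflammatory gene expression through STAT3. IL-12 and IL-23 are heterodimers with a common p40 chain, encoded by Il12b, which pairs with p35 (Il12a) to make IL-12 and with p19 (Il23a) to make IL-23; IL-27 pairs p28, encoded by Il27, with EBI3. IL-10RB also serves receptors of other cytokines, among them IL-22 and type III interferons, and the IL-27 receptor combines IL-27RA with gp130 (Il6st).

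RefSeq promoter windows were matched for 3 of the 8 members, Ebi3, Il12a and Il12b. Those of Ebi3 and Il12b are shown because the genes were the extremes among the members with a window and any reads: Ebi3 was read in every library and Il12b had 19 reads in all. Each is the 250 bases before the annotated start on the plus strand of GRCm38.p6, with Ebi3 at chr17:55952373-55952622 and Il12b at chr11:44399813-44400062. Capitals mark a match to a searched motif.
Ebi3: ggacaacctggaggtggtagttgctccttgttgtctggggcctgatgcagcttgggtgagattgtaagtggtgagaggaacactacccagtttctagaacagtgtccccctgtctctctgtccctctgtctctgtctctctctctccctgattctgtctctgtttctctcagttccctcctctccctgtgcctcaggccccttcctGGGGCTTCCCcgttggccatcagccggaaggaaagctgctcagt
Il12b: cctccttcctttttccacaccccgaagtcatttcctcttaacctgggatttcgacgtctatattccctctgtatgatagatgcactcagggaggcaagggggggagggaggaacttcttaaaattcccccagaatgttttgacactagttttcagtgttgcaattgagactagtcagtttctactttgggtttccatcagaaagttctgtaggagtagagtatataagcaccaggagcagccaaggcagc
The motifs searched on both strands were the NF-kB consensus, the interferon-stimulated response element (GAAA and, after any 2 bases, GAAA again), the gamma-activated sequence TTCNNNGAA, AP-1 TGANTCA and C/EBP TTNNGNAA. The Ebi3 window held 1 match to the NF-kB consensus, from 44 to 35 bases before the start, which overlapped no other match, and the Il12b and Il12a windows held 0 matches to any of them. Among 32851 windows of the same length, 7.25% held the NF-kB consensus, 2.98% the interferon-stimulated response element, 7.02% the gamma-activated sequence, 6.75% AP-1 and 36.8% C/EBP. A match describes the letters and does not show a bound site. Likewise, 0 matches to these strings does not show that a promoter lacks such sites.

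The libraries held 35.9 to 45.7 M reads in genes, and levels below are CPM over those gene reads, so 1 read was worth 0.0219 to 0.0278 CPM. Parp14 averaged 37.7 ± 3.96 CPM in KO with LPS, against 367 ± 73.8 in WT with LPS, and 11 ± 1.39 CPM in untreated KO, against 88.1 ± 16.5 in untreated WT (SD, n = 2 each), or 10.3% and 12.5% of WT. All 8 macrophage markers of the list used here were present, with a summed level of 10900 to 14800 CPM. With LPS the sum was lower in KO, at 10900 to 12100 CPM against 13000 to 13100 in WT with LPS. Untreated, the ranges overlapped, at 11900 to 14400 CPM in KO and 12900 to 14800 in WT. Lyz2 made up the largest part of the sum, at 6650 ± 853 CPM in KO with LPS and 8330 ± 85.9 in WT with LPS. With LPS 3 of the 8 were lower in KO and 1 was higher, where 7.66% of all genes were called lower and 6.19% higher. Among the lower was Adgre1, which encodes F4/80, at 70.5 ± 8.26 CPM in KO against 175 ± 17.8 CPM in WT (SD, n = 2 each, log2 difference -1.30, adjusted p = 0.000357). Adgre1 was also lower in untreated KO, at 73.5 ± 7.99 CPM against 143 ± 13.6 in untreated WT (-0.95, adjusted p = 0.00292). Cd14 went the other way, at 2430 ± 2.17 CPM in KO with LPS against 1970 ± 44.2 in WT with LPS. The part of these markers in the differences between genotypes was not tested. The 6 dendritic cell markers summed to 4.31 to 32.7 CPM over the 12 libraries with Cd209a at 0, the 6 lymphocyte markers to 0.0517 to 0.246 CPM with Cd3e, Ms4a1 and Ncr1 among those at 0, and the 6 stromal, epithelial and endothelial markers to 0.414 to 1.33 CPM with Col1a2 and Epcam at 0. Of all alignments, 58.95 to 59.86% fell in genes in the 4 KO libraries, against 61.51 to 64.06% in the 8 WT libraries, and the part of this in the differences between genotypes was not tested. The dendritic sum moved with LPS, at 22.7 to 28.7 CPM in KO with LPS against 4.31 to 5.88 in untreated KO and 25.7 to 32.7 CPM in WT with LPS against 6.77 to 8.85 in untreated WT, mainly through Itgax, and its part in the LPS results was not tested. In bulk RNA, a change in the number of cells that express a gene and a change in the RNA per cell cannot be told apart.

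Of the members 6 reached 1 CPM in at least 2 libraries and were tested. Il10 passed through 3 libraries, both of KO with LPS and replicate 2 of WT with LPS, and Il23a through the 2 libraries of KO with LPS, so the counts of tested members are descriptions of a set that the filter shaped. The test was limma on log2(CPM + 1) over all 12 libraries, with p adjusted over 10899 genes by Benjamini-Hochberg and a call at an adjusted p under 0.05; log2 differences on this scale understate the change of genes near or below 1 CPM. In each of the LPS comparisons, 5 tested members rose (Il10, Il27, Ebi3, Il23a and Il10ra) and 1 fell (Il10rb, whose direction depended on the scaling), in KO, in WT with the inhibitor and in WT alone. Over all tested genes 13.9% were called higher and 52.7% lower with LPS in KO, 13.5% and 50.8% in WT with the inhibitor, and 13.7% and 53.6% in WT. The median log2 difference of all genes with LPS was -0.29 in KO, -0.27 in WT with the inhibitor and -0.30 in WT, and small falls are read against that shift. After median-of-ratios scaling these medians were -0.034, -0.033 and -0.04. Shares of all genes called are given throughout without that scaling. With LPS, 3 of the 6 tested members differed between KO and WT, Il10 higher and Il27 and Il10rb lower, where 13.9% of all genes were called, 6.19% higher and 7.66% lower.

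**Figure D1:**
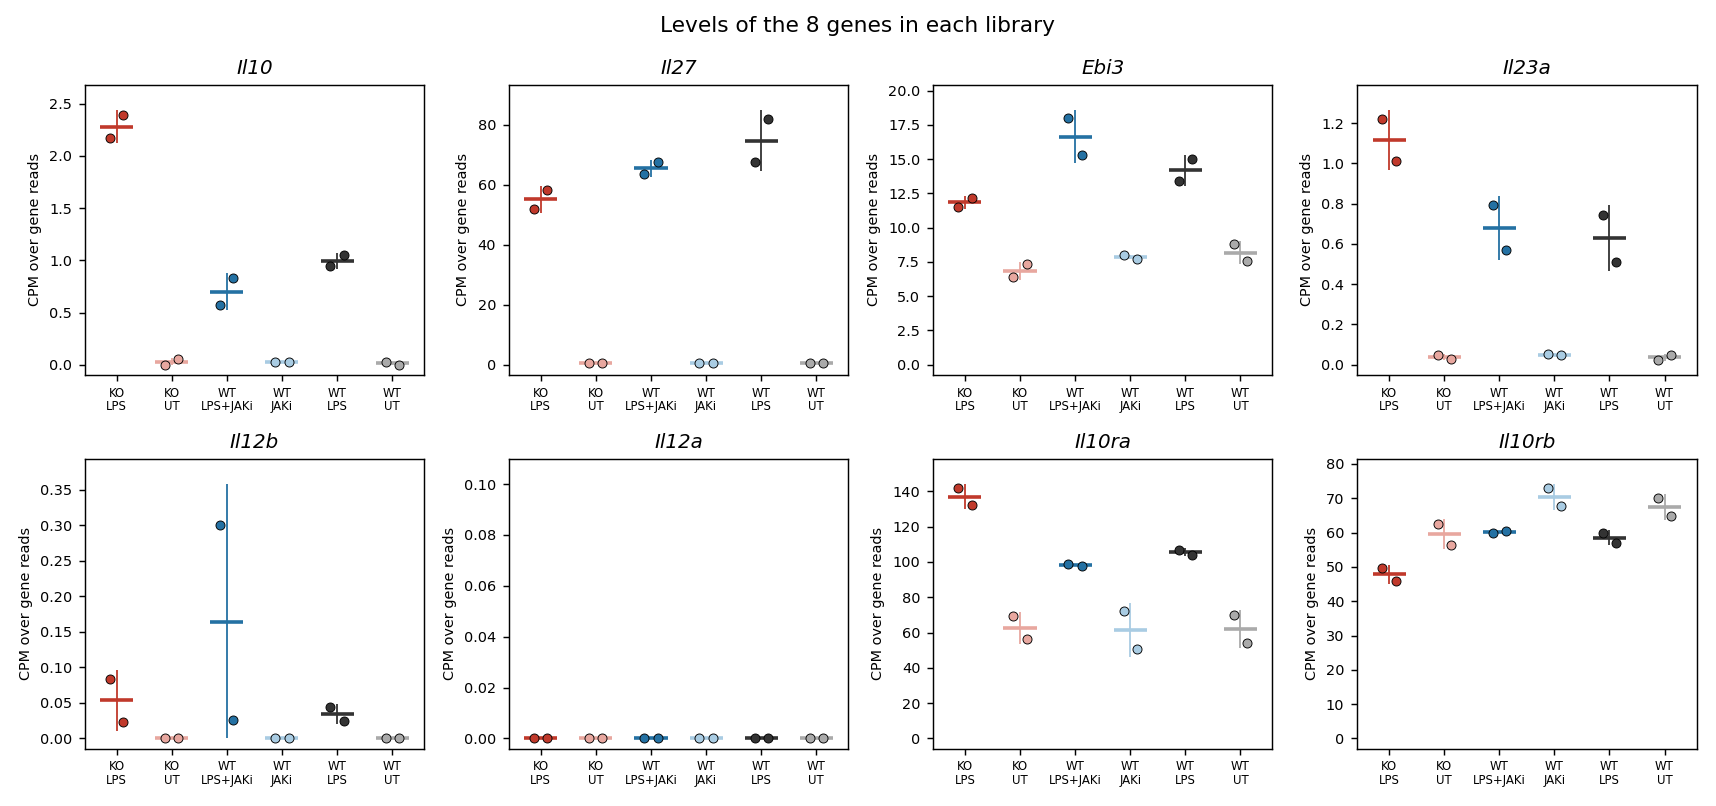
Levels of the 8 family genes in CPM over gene reads, with a point per library, a horizontal bar for the mean and a vertical line for the SD of the 2 libraries in each group (cut at 0); JAKi is the Jak inhibitor and UT is untreated. Il10 is highest in both KO libraries with LPS (2.17 and 2.39 CPM), Il27 is high in all 3 groups with LPS, and Il12a is at 0 throughout.

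Il10, on chromosome 1 (131019845 to 131024974, plus strand, GRCm38), had the largest difference between genotypes with LPS among the tested members. Its level was 2.17 and 2.39 CPM in KO with LPS (78 and 102 reads) and 0 and 0.0523 CPM in untreated KO (0 and 2 reads). In WT it was 0.574 and 0.827 CPM after LPS with the inhibitor (21 and 32 reads), 0.0258 and 0.0245 CPM with the inhibitor alone (1 read each), 0.942 and 1.05 CPM with LPS (43 reads each) and 0.0254 and 0 CPM untreated (1 and 0 reads). By library the order with LPS was thus KO, WT, and WT with the inhibitor, with no overlap between neighbours. With 2 libraries a group, such separation here and below only describes the libraries, and its share over all genes was not computed. Il27, Ebi3 and Il10ra also separated between WT with LPS and WT with LPS and the inhibitor, without a call. For Il10 the step from WT to WT with the inhibitor did not pass in limma (adjusted p = 0.674). Its depth-scaled ratio of summed reads was 0.71 (95% counting interval 0.494 to 1.01). The 6 libraries without LPS held 0 to 2 reads each. Il10 rose with LPS by 1.68 on the log2(CPM + 1) scale in KO (adjusted p = 5.41e-07), by 0.73 in WT with the inhibitor (adjusted p = 0.00015) and by 0.98 in WT (adjusted p = 1.9e-05). As a ratio of summed reads scaled for depth, this was 89.4-fold in KO (95% interval 24.4 to 744), 28.0-fold in WT with the inhibitor (7.39 to 237) and 78.8-fold in WT (13.8 to 3150), intervals that cover counting error only and are wide because the untreated counts are so low.

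Mean Il10 with LPS was 2.28 ± 0.154 CPM in KO, against 0.995 ± 0.0753 in WT (SD, n = 2 each), a 2.29-fold difference. It was 2.3-fold between the libraries numbered 1 and 2.28-fold between those numbered 2. The log2 difference was 0.72 (95% interval 0.49 to 0.94, adjusted p = 0.00137), and the count-based tests gave 1.19 with an adjusted p of 0.0134 in edgeR and 0.0264 in DESeq2. Il10 had passed the filter through both KO libraries and 1 WT library with LPS, so these adjusted p values carry that selection. Untreated KO and WT both stood at the level of a few reads, with a log2 difference of 0.02 (-0.21 to 0.25, adjusted p = 0.967). The difference between the KO and WT responses to LPS was 0.70 on the log2(CPM + 1) scale (0.38 to 1.02) and did not pass the test (adjusted p = 0.0975); with the replicate number as a block the adjusted p was 0.0213 and without the filter 0.0278, while edgeR gave a difference of 0.33 with an adjusted p of 1.0. After LPS, the inhibitor left 0.701 ± 0.179 CPM, 70.4% of the 0.995 ± 0.0753 CPM in WT with LPS alone, a log2 difference of -0.23 (-0.46 to -0.01) that did not pass (adjusted p = 0.674).

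**Figure D2:**
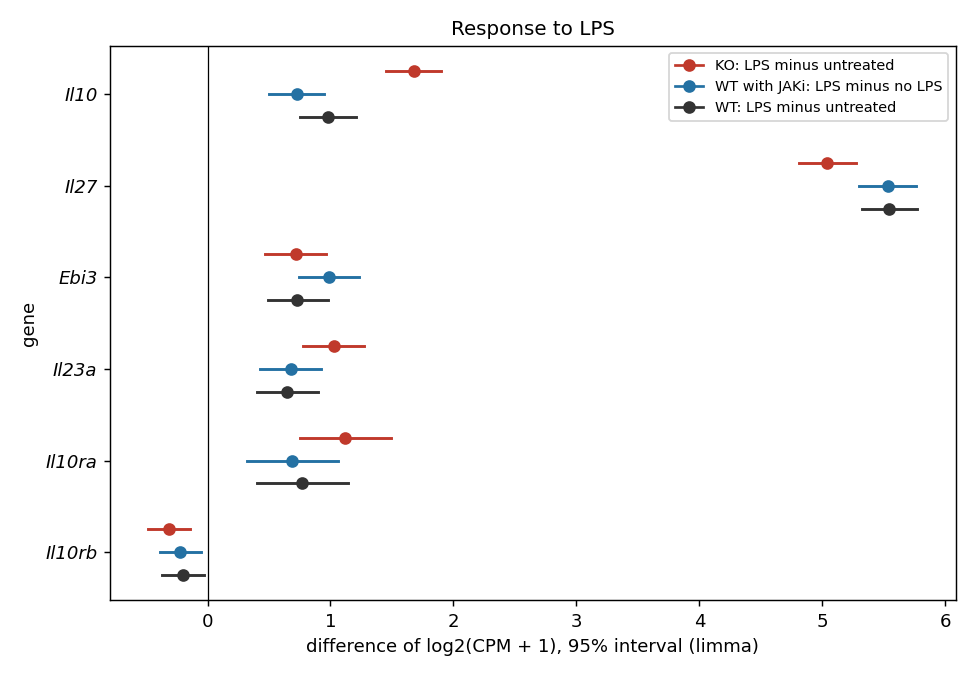
Difference of log2(CPM + 1) between LPS and no LPS for the 6 tested members, with 95% intervals from limma, in KO (red, top of each row), WT with the Jak inhibitor (blue) and WT (black, bottom). Il27 had the largest difference in all 3 settings (5.04 in KO, 5.53 in WT with the inhibitor, 5.54 in WT), and Il10rb lay just below 0 in each at this scaling (-0.04, 0.04 and 0.08 after median-of-ratios scaling).

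Il27, the p28 chain gene on chromosome 7 (126589010 to 126594941, minus strand), gave the largest LPS difference of the tested members on the log2(CPM + 1) scale. It stood at 52.0 and 58.3 CPM in KO with LPS and at 0.677 and 0.732 CPM in untreated KO. In WT it was 63.4 and 67.4 CPM after LPS with the inhibitor, 0.412 and 0.466 CPM with the inhibitor alone, 67.6 and 81.8 CPM with LPS, and 0.634 and 0.600 CPM untreated. Every library with LPS was thus far above every library without it, and both KO libraries with LPS were below the 4 WT libraries with LPS. The rise was 78.2-fold in KO (log2(CPM + 1) difference 5.04, adjusted p = 7.54e-10), 149-fold in WT with the inhibitor (5.53, adjusted p = 5.24e-10) and 121-fold in WT (5.54, adjusted p = 3.79e-10).

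With LPS, Il27 averaged 55.1 ± 4.45 CPM in KO, against 74.7 ± 10.0 in WT (SD, n = 2 each), or 73.8% of WT. The log2 difference was -0.43 (-0.66 to -0.20, adjusted p = 0.0204). It was also called with the replicate block (adjusted p = 0.00101), median-of-ratios scaling (0.0235), edgeR (0.0134) and DESeq2 (0.00895). The call rested on few libraries: without replicate 2 of WT with LPS the difference was -0.29 (adjusted p = 0.151), without replicate 1 of KO with LPS it was -0.35 (adjusted p = 0.146), and in a fit of the groups compared alone the adjusted p was 0.0847. The difference between the KO and WT responses to LPS was -0.50 on the log2(CPM + 1) scale and did not pass (adjusted p = 0.323; 0.0248 with the replicate block). After LPS with the inhibitor Il27 averaged 65.4 ± 2.80 CPM, against 74.7 ± 10.0 with LPS alone, a difference of -0.18 (-0.41 to 0.04, adjusted p = 0.818) and smaller than the SD of the LPS libraries.

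Ebi3, which encodes the partner chain of p28 and whose promoter window is shown above, lies on chromosome 17 (55952640 to 55957022, plus strand). It was already present without LPS. Its levels were 11.5 and 12.2 CPM in KO with LPS, 6.37 and 7.32 CPM in untreated KO, 18.0 and 15.3 CPM in WT after LPS with the inhibitor, 7.99 and 7.75 CPM in WT with the inhibitor alone, 13.4 and 15 CPM in WT with LPS and 8.80 and 7.57 CPM in untreated WT. The gene rose 1.73-fold with LPS in KO (adjusted p = 0.000259), 2.11-fold in WT with the inhibitor (adjusted p = 3.08e-05) and 1.74-fold in WT (adjusted p = 0.000219). KO libraries lay below WT libraries with LPS, without overlap, but the log2 difference of -0.24 (-0.49 to 0.00) did not pass (adjusted p = 0.205), nor did the untreated difference of -0.23 (-0.47 to 0.02, adjusted p = 0.298).

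Because the IL-27 chains are encoded separately, their levels were set against each other per kilobase of exon. With LPS Il27 was the more abundant chain, with an Il27 to Ebi3 ratio of CPM per kilobase of 5.25 ± 0.189 in KO, 4.49 ± 0.706 in WT with the inhibitor and 5.92 ± 0.336 in WT (SD, n = 2 each). Without LPS it was the scarcer one, at a ratio of 0.117 in untreated KO, 0.0631 in WT with the inhibitor and 0.0855 in untreated WT. These ratios describe mRNA, and annotated exon length stands in for transcript length.

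Il23a, the p19 chain gene of IL-23 on chromosome 10 (128296139 to 128298752, minus strand), was low but rose with LPS. It reached 1.22 and 1.01 CPM in KO with LPS (44 and 43 reads), 0.793 and 0.568 CPM in WT after LPS with the inhibitor (29 and 22 reads) and 0.745 and 0.512 CPM in WT with LPS (34 and 21 reads). It was at 0.0501 and 0.0261 CPM in untreated KO, 0.0515 and 0.049 CPM in WT with the inhibitor and 0.0254 and 0.05 CPM in untreated WT. Both KO libraries with LPS were above all other libraries, and those of WT with LPS overlapped with and without the inhibitor. The log2(CPM + 1) difference with LPS was 1.03 in KO (adjusted p = 2.52e-05), 0.68 in WT with the inhibitor (adjusted p = 0.000455) and 0.65 in WT (adjusted p = 0.000557).

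Between KO and WT with LPS, Il23a averaged 1.12 ± 0.154 and 0.628 ± 0.165 CPM (SD, n = 2 each), a log2 difference of 0.38 (0.13 to 0.63) with an adjusted p of 0.0513. Il23a was tested only because both KO libraries with LPS reached 1 CPM. Its adjusted p values that involve KO with LPS, here and above, therefore carry that selection. The depth-scaled ratio of summed reads, 87 against 55, was 1.74 (95% counting interval 1.23 to 2.49). The difference was called with the replicate block (adjusted p = 0.0219), without the filter on low values (0.0251) and after median-of-ratios scaling (0.0421), and was not called in edgeR (0.81, adjusted p = 0.0746) or DESeq2 (0.82, adjusted p = 0.346). With the inhibitor the LPS level was 0.05 away from that with LPS alone on the log2(CPM + 1) scale (-0.20 to 0.30, adjusted p = 0.991).

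The remaining IL-12 chains were at or near the limit of detection. Il12b, the common p40 gene on chromosome 11 (44400063 to 44414033, plus strand), had 3 and 1 reads in KO with LPS, 11 and 1 reads in WT after LPS with the inhibitor, 2 and 1 reads in WT with LPS, and 0 reads in each of the 6 libraries without LPS. Its highest level, 0.301 CPM, came from 1 library, and the other library of that group had 1 read. Il12a, the p35 gene on chromosome 3 (68690644 to 68698547, plus strand), was read in 0 of the 12 libraries, which allows up to 0.00628 CPM over the summed reads and up to 0.0835 CPM in the shallowest library (3 reads, counting error only). Per kilobase of exon, Il23a stood at 0.496 ± 0.0685 CPM in KO with LPS, 0.303 ± 0.0707 in WT with LPS and the inhibitor and 0.280 ± 0.0732 in WT with LPS, while Il12b stood at 0.0272 ± 0.0216, 0.0831 ± 0.0989 and 0.0173 ± 0.00698 CPM in the same groups.

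The receptor chains were expressed in every library. Il10ra, the ligand-binding chain on chromosome 9 (45253837 to 45269149, minus strand), was at 142 and 132 CPM in KO with LPS, 69.1 and 56.3 CPM in untreated KO, 98.7 and 97.9 CPM in WT after LPS with the inhibitor, 72.3 and 50.7 CPM in WT with the inhibitor alone, 107 and 104 CPM in WT with LPS and 69.8 and 54.3 CPM in untreated WT. Every library with LPS exceeded every library without it. Il10ra rose 2.19-fold in KO (log2 difference 1.12, adjusted p = 0.000199), 1.6-fold in WT with the inhibitor (0.69, adjusted p = 0.00442) and 1.7-fold in WT (0.77, adjusted p = 0.00228). With LPS the KO mean of 137 ± 6.71 CPM was above the WT mean of 105 ± 2.20 CPM without overlap. That difference of 0.38 (0.01 to 0.75) did not pass (adjusted p = 0.19), although it did with the replicate block (0.00636) and in a fit of the groups compared alone (0.0368), and did not with median-of-ratios scaling (0.16), edgeR (0.175) or DESeq2 (0.12). The untreated KO and WT levels overlapped.

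Il10rb, the accessory chain on chromosome 16 (91406164 to 91425834, plus strand), was at 49.8 and 45.9 CPM in KO with LPS and 62.6 and 56.5 CPM in untreated KO. In WT it was at 60.0 and 60.4 CPM after LPS with the inhibitor, 73.0 and 67.6 CPM with the inhibitor alone, 60.0 and 56.9 CPM with LPS and 70.2 and 64.8 CPM untreated. It fell by 0.31 with LPS in KO (adjusted p = 0.00503), by 0.22 in WT with the inhibitor (0.0285) and by 0.20 in WT (0.0388), which is about the median shift of all genes. With median-of-ratios scaling the same differences were -0.04, 0.04 and 0.08, so this direction depended on the scaling. The call in WT was also lost without replicate 1 of untreated WT (adjusted p = 0.224) or without replicate 1 or 2 of WT with LPS (0.0582 and 0.169), and that in WT with the inhibitor without replicate 1 of the inhibitor alone (0.166) or replicate 1 or 2 of LPS with the inhibitor (0.0887 and 0.0763). Between genotypes the direction did not depend on the scaling. With LPS, KO stood at 47.8 ± 2.76 CPM and WT at 58.5 ± 2.15 CPM (SD, n = 2 each), a difference of -0.29 (-0.46 to -0.11, adjusted p = 0.0355). That difference was also called with median-of-ratios scaling (0.0244), edgeR (0.026) and DESeq2 (0.00278). It was not called when any 1 of the 4 libraries was left out (adjusted p 0.062 to 0.204), nor in a fit of the groups compared alone (0.105). Untreated, KO was at 59.6 ± 4.35 CPM and WT at 67.5 ± 3.81 CPM, a difference of -0.18 (-0.35 to -0.01) that did not pass (adjusted p = 0.227) except with the replicate block (0.0157).

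**Figure D3:**
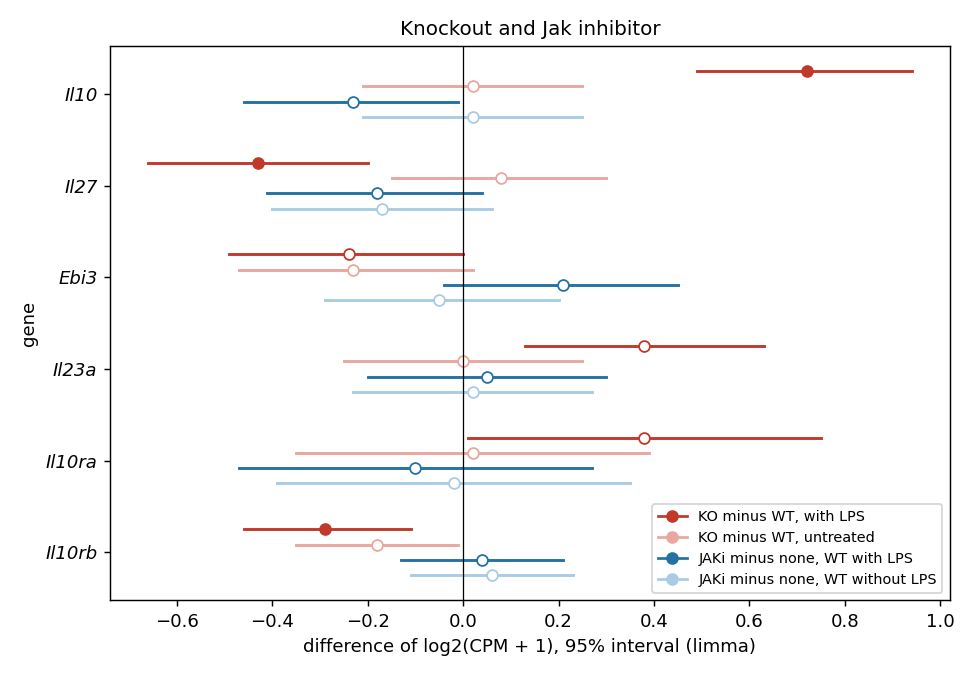
Differences of log2(CPM + 1) with 95% intervals from limma for the 6 tested members, between KO and WT and between WT with and without the Jak inhibitor, with and without LPS. Filled points passed an adjusted p under 0.05 and open points did not; Il10 (0.72), Il27 (-0.43) and Il10rb (-0.29) are the filled ones, all between KO and WT with LPS.

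The Jak inhibitor gave no call among the members. In untreated WT, limma called 0 of the 6 tested members, with 0 at an unadjusted p under 0.05 and 0 called in edgeR and in DESeq2, where 0% of all genes were called. After LPS, limma called 0 members, with 1 (Il10) at an unadjusted p under 0.05 and 0 called in edgeR and in DESeq2, where 1.11% of all genes were called. On the log2(CPM + 1) scale the widest interval after LPS was that of Il10ra, at -0.10 (-0.47 to 0.27), which leaves room for changes of that size. That scale narrows the intervals of Il10 and Il23a. Their depth-scaled ratios of summed reads were 0.71 (95% counting interval 0.494 to 1.01) and 1.07 (0.715 to 1.59). For Il10 edgeR gave -0.51 (adjusted p = 0.89). Untreated KO and WT gave 0 calls in limma, edgeR and DESeq2, with 1 member (Il10rb) at an unadjusted p under 0.05 and 9.68% of all genes called. The responses to LPS in KO and WT differed for 0 members in limma, edgeR and DESeq2, with 3 (Il10, Il27 and Il23a) at an unadjusted p under 0.05 and 0.413% of all genes called. Responses with and without the inhibitor differed for 0 members in the same tests, with 0 at an unadjusted p under 0.05 and 0.587% of all genes called. These comparisons share the WT libraries with LPS or the untreated WT libraries.

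Genes that carry the signal of the family were counted in a list of 13 receptors and signalling genes, of which 9 were tested. With LPS 4 rose and 4 fell in KO, 3 rose and 2 fell in WT with the inhibitor, and 4 rose and 3 fell in WT. Of all tested genes, 13.9%, 13.5% and 13.7% were called higher with LPS in that order, and 52.7%, 50.8% and 53.6% lower. The list median was 0.13, 0.00 and 0.10, beside -0.29, -0.27 and -0.30 for all genes. After median-of-ratios scaling 5 rose and 1 fell in KO, and 5 rose and 2 fell in WT with the inhibitor and in WT. Socs3, a feedback inhibitor induced by STAT3, rose 32.5-fold in KO, 19.0-fold in WT with the inhibitor and 26.4-fold in WT. Jak2, a kinase of the IL-12 and IL-23 receptors, rose 5.94-fold, 6.33-fold and 6.60-fold in the same groups. Socs1, a feedback inhibitor of Jak kinases, was at 1.42 and 1.38 CPM in KO with LPS, 0.985 and 0.672 CPM in WT with LPS and the inhibitor, and 2.74 and 2.54 CPM in WT with LPS. It was lower in KO than in WT with LPS (log2 difference -0.60, adjusted p = 0.0145; not called in edgeR or DESeq2) and lower with the inhibitor (-1.0, adjusted p = 0.00451). Its LPS response was smaller with the inhibitor (-1.04, adjusted p = 0.0489), which edgeR and DESeq2 did not call. Il6st was lower in KO with LPS, at 38.4 and 41.1 CPM against 47.6 and 50.0 CPM in WT with LPS (-0.29, adjusted p = 0.0159). It was also lower in untreated KO, at 72.5 and 77.4 CPM against 106 and 104 CPM in untreated WT (-0.48, adjusted p = 0.00141). In all, 3 of the 9 were lower and 0 higher in KO with LPS, where 7.66% of all genes were called lower. In untreated KO 1 was lower and 0 higher, where 9.68% of all genes were called. The blocked fit called 3 lower and 2 higher, where it called 2685 of the 10899 genes. With the inhibitor after LPS 2 were lower, where 1.11% of all genes were called.

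The receptor chains Il12rb1, Il12rb2, Il23r and Il27ra were scarce. Il23r had 0 reads in all 12 libraries, Il12rb2 did not exceed 0.773 CPM, and Il12rb1, the chain shared by the IL-12 and IL-23 receptors, ranged from 0.964 to 3.94 CPM. Il27ra had 142 reads in all and was not tested. It averaged 0.640 ± 0.0781 CPM in KO with LPS and 0.140 ± 0.0432 in WT with LPS, and 0.588 ± 0.0188 CPM in untreated KO and 0.151 ± 0.0371 in untreated WT (SD, n = 2 each). Il12rb2, also not tested, went the other way, at 0.219 ± 0.0447 CPM in KO with LPS against 0.629 ± 0.132 in WT with LPS. Untreated, Il12rb2 was at 0.292 ± 0.154 CPM in KO and 0.629 ± 0.0421 in WT. Of 11 relatives of IL-10 and their receptors only Il20rb, a chain of the IL-20 receptors, was tested, and it was called in 0 of the 9 comparisons by limma, edgeR and DESeq2, with 1 at an unadjusted p under 0.05 (KO against WT with LPS). With the replicate block limma called it lower in 2 comparisons, KO against WT with LPS and LPS against no LPS in WT with the inhibitor. Il19, on chromosome 1 like Il10, had 50 reads in all and averaged 0.296 ± 0.0540 CPM in KO with LPS, against 0.116 ± 0.00876 in WT with LPS.

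Of 28 regulators of Il10 and Il12b transcription, 27 were tested. With LPS 14 rose and 9 fell in KO, 13 rose and 7 fell in WT with the inhibitor and 15 rose and 8 fell in WT. Of all tested genes, 13.9%, 13.5% and 13.7% were called higher with LPS in that order, and 52.7%, 50.8% and 53.6% lower. The list median was 0.48, 0.46 and 0.89, beside -0.29, -0.27 and -0.30 for all genes. After median-of-ratios scaling 16 regulators rose and 6 fell in KO, 15 rose and 4 fell in WT with the inhibitor, and 17 rose and 4 fell in WT. Nfkbiz, an atypical IkB protein that acts in the nucleus, rose 94.2-fold, 89.5-fold and 101-fold in these groups. Between KO and WT with LPS, 3 regulators were higher and 4 lower, against 13.9% of all genes called, and the list median was -0.01 beside 0.00 for all genes. With the replicate block 6 were higher and 9 lower, where that fit called 3438 of the 10899 genes.

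Irf1, an interferon-induced transcription factor needed for full Il12 gene induction, was highest in WT with LPS alone. It was at 25.7 and 26.3 CPM in KO with LPS, 23.4 and 24.2 CPM in untreated KO, 29.9 and 23.0 CPM in WT after LPS with the inhibitor, 28.0 and 23.7 CPM in WT with the inhibitor alone, 95.4 and 82.9 CPM in WT with LPS and 28.4 and 24.4 CPM in untreated WT. Only the WT libraries with LPS alone stood apart from the other 10. A small rise with LPS in KO depended on the scaling. Limma did not call it, but it was called after median-of-ratios scaling (0.39, adjusted p = 0.0233), in edgeR (0.42, 0.0212) and in DESeq2 (0.45, 0.00478). In WT with the inhibitor DESeq2 called a rise (0.34, adjusted p = 0.0361), which edgeR (0.0645) and limma at either scaling did not. Irf1 was lower in KO than in WT with LPS (log2 difference -1.74, adjusted p = 3.2e-05) and lower with the inhibitor after LPS (-1.72, adjusted p = 0.000154). Its response to LPS differed both between KO and WT (-1.59, adjusted p = 0.00726) and with the inhibitor (-1.69, adjusted p = 0.00295).

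Prdm1, which encodes the repressor Blimp-1, was at 7.87 and 7.65 CPM in KO with LPS, 31.5 and 26.6 CPM in WT with LPS and the inhibitor and 30.9 and 28.1 CPM in WT with LPS, and at 0.0251 to 0.258 CPM in the libraries without LPS. The KO libraries were below both WT groups with LPS, which overlapped each other. Prdm1 was lower in KO than in WT with LPS (log2 difference -1.80, adjusted p = 1.15e-05). Its LPS response on the log2(CPM + 1) scale also differed (-1.67, adjusted p = 0.00335), whereas as a ratio of counts the difference was -0.18 in edgeR (adjusted p = 1.0).

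Maf and Ets2 were higher in KO with and without LPS. Maf, an activator of Il10 in macrophages, was at 2.59 and 2.41 CPM in KO with LPS against 0.416 and 0.561 CPM in WT with LPS (log2 difference 1.23, adjusted p = 0.000765), and at 6.32 and 4.42 CPM in untreated KO against 0.279 and 0.075 CPM in untreated WT (2.42, adjusted p = 1.83e-05). Ets2, an ETS family factor, was at 558 and 585 CPM in KO with LPS against 306 and 352 CPM in WT with LPS (0.80, adjusted p = 0.00971), and at 139 and 146 CPM in untreated KO against 57.4 and 74.0 CPM in untreated WT (1.12, adjusted p = 0.00222). Irf4 was lower in untreated KO, at 1.96 and 1.52 CPM against 3.3 and 3.7 CPM in untreated WT (-0.72, adjusted p = 0.00869). Among the regulators 2 were thus higher and 1 lower in untreated KO, against 9.68% of all genes called. With the replicate block 6 were higher and 2 lower, where that fit called 2685 of the 10899 genes. After LPS 1 regulator, Irf1, was called lower with the inhibitor, against 1.11% of all genes called. DESeq2 called 3 lower. The replicate block called 5 lower, where that fit called 446 of the 10899 genes.

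**Figure D4:**
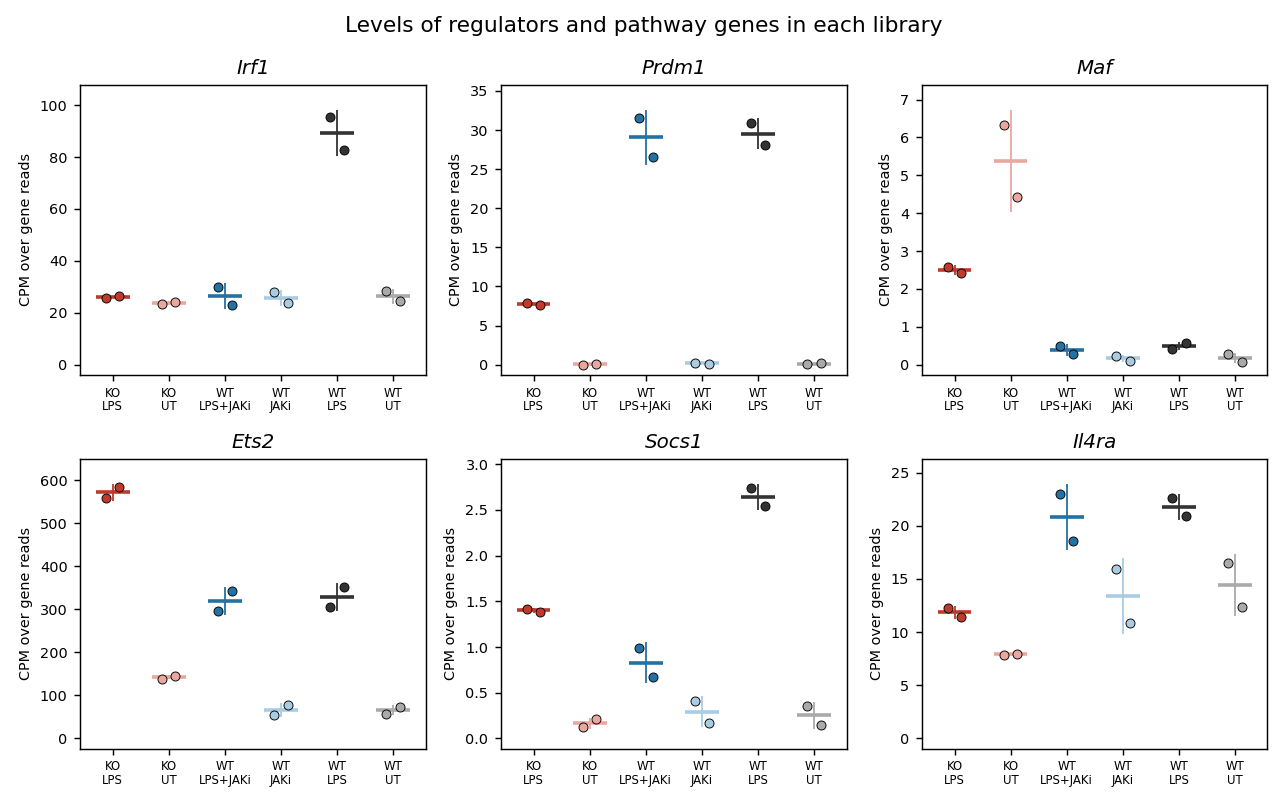
Levels in CPM over gene reads of 6 genes from the lists of regulators, signalling genes and IL-10 targets, with a point per library, a horizontal bar for the mean and a vertical line for the SD of the 2 libraries in each group. Irf1 is highest in WT with LPS alone (95.4 and 82.9 CPM), and Maf and Ets2 are higher in KO than in WT with and without LPS.

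The 12 genes known as targets of IL-10 in macrophages were all tested. With LPS 9 rose and 1 fell in KO, 7 rose and 2 fell in WT with the inhibitor, and 8 rose and 2 fell in WT (9 and 0, 9 and 1, and 9 and 2 after median-of-ratios scaling). Of all tested genes, 13.9%, 13.5% and 13.7% were called higher with LPS in that order, and 52.7%, 50.8% and 53.6% lower. The list median was 0.73, 0.74 and 0.78, beside -0.29, -0.27 and -0.30 for all genes. Several targets, Socs3 among them, also belong to the other lists or respond to LPS through other routes. Tnfrsf1b, a TNF receptor gene, rose 9.06-fold in KO, 9.36-fold in WT with the inhibitor and 9.10-fold in WT. Il1rn, the IL-1 receptor antagonist gene, rose 11.2-fold, 6.18-fold and 7.97-fold in the same groups. Between KO and WT with LPS 2 were higher and 1 lower, where 6.19% of all genes were called higher and 7.66% lower, and the list median was 0.05 beside 0.00 for all genes. With the replicate block 2 were higher and 3 lower, where that fit called 3438 of the 10899 genes, and in DESeq2 2 were higher and 2 lower. Hmox1, which encodes heme oxygenase 1, was at 139 and 159 CPM in KO with LPS against 76.5 and 82.5 CPM in WT with LPS (log2 difference 0.90, adjusted p = 0.000204), and at 115 and 135 CPM in untreated KO against 82.4 and 85.0 CPM in untreated WT (0.56, adjusted p = 0.00403). Ddit4, an inhibitor of mTORC1 signalling, was at 2.75 and 1.52 CPM in KO with LPS against 0.810 and 0.463 CPM in WT with LPS (0.92, adjusted p = 0.0307). Il4ra, the IL-4 receptor chain gene, was at 12.3 and 11.4 CPM in KO with LPS against 22.6 and 20.9 CPM in WT with LPS (-0.82, adjusted p = 0.0119), and at 7.85 and 7.97 CPM in untreated KO against 16.5 and 12.4 CPM in untreated WT (-0.78, adjusted p = 0.0198). With the inhibitor after LPS limma called 0 of the 12, with 2 at an unadjusted p under 0.05, where 1.11% of all genes were called. The count was also 0 in edgeR and in DESeq2. Limma with the replicate block called 2 lower, where it called 446 of the 10899 genes.

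Likeness of profile was measured by Pearson r of log2(CPM + 1) over the 12 libraries among 9262 genes, as a description of libraries that all share the contrast of LPS with no LPS. The genes most like Il10 were Serpinb2 (r = 0.988), Nabp1 (0.986) and Osm (0.979). Those most like Il23a were Trim13 (0.993), Homer1 (0.992) and Lcn2 (0.991), and those most like Il27 were Mir155hg, Hdc and Rab11fip1 (0.999 each). For Ebi3 they were Rhog (0.988), Alas1 (0.984) and Lrp10 (0.979), for Il10ra Sat1 (0.977), Tsc22d1 (0.972) and Osm (0.966), and for Il10rb they included Dnajb14 (0.982) and Adgre5 (0.98). Among the members themselves Il10 was closest to Il23a (0.949) and Il10ra (0.938), and Ebi3 was closest to Il27 (0.931).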

How the data were processed

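The authors' deposited values are CPM, a row per gene symbol and a column per library. The submitters' processing notes name TopHat2 2.1.0, HTSeq and edgeR as tools and mm10 and GRCm38 as builds; they state no annotation, strand setting or further version. The deposited CPM were scaled over all counted alignments, with 5 HTSeq summary lines included, and 58.95 to 64.06% of alignments fell in genes. Of the values above 0 in a library, 99.98 to 100.0% came out as whole reads (to within 0.02) when the scaling was undone, and these reads were used for edgeR 4.0.16 (quasi-likelihood) and DESeq2 1.42.0, run as alternatives. The table had 4 further per-sample columns that matched no sample label and were not used.

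CPM were rescaled to the reads in genes of each library. A gene needed 1 CPM or more in 2 or more libraries, which 10899 had. These went into limma 3.58.1 (R 4.3.3), fitted with a trend to log2(CPM + 1) values in 1 fit of 6 group means (6 residual and 3.54 prior degrees of freedom) and 9 comparisons. Adjusted p are Benjamini-Hochberg over all tested genes. The script recovered known changes when tested on simulated data. Those data held few changed genes, no pairing of replicate numbers and no shift of the median, so they do not show how the fit performs on these libraries. Ratios of summed reads have exact 95% binomial intervals and a floor of 3 reads; they cover counting error only, since PCR copies are not independent molecules. Every member was named in every comparison, and from each list the 3 called genes with the largest log2 change in a comparison; not all of these are printed, and some genes of the lists and profiles are not reported here. Ets2 with LPS, Il27ra, Il12rb1, Il12rb2, Il23r, Il19, Il20rb, Adgre1 and Cd14 were named outside that rule after values were seen. Profiles were compared with genes of a mean of at least 5 CPM in a group. The members and lists were chosen with earlier results of these data known. Positions and exon lengths are from GENCODE M21 (GRCm38).

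The labels name no separate cultures, and p-values therefore reflect the spread between these libraries alone, which may be technical. They number the libraries 1 and 2 in each group. Differences of replicate 1 minus 2 correlated across genes in all 15 pairs of groups (0.468 to 0.737), so the numbers behaved like a pairing, although no label gives a shared day or batch. Blocking on the replicate number was an alternative. The others were a smaller pseudocount (0.25), testing without the filter or with 5 CPM in it, median-of-ratios scaling, the deposited scaling, a fit of the groups compared alone and each library left out in turn.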

Additional observations from a re-analysis of the deposited data

How the results depend on the processing

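Of the members' differences under the alternatives, 656 kept their direction and side of the threshold, 18 lost the call, 9 gained it and 40 changed sign; counts of members were within 1.5 times of the reported count in 119 of 125 settings. With 2 libraries a group and a few reads for Il10, Il23a and Il12b in untreated cells, depth limits what can be said of those genes without LPS, and the cause of the shifts below was not tested.

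With the replicate block, calls among the members were 1 between untreated KO and WT, 5 between KO and WT with LPS and 2 for the difference of their responses; that last count was 1 without the filter. The block changed no call of a member other than those given with the results. Calls over all genes with the block were 2685 between untreated KO and WT, 3438 with LPS, 413 for the difference of their responses, 4 for the inhibitor in untreated WT, 446 for it after LPS and 318 for its effect on the response. In a fit of the groups compared alone they were 914 between KO and WT with LPS and 37 for the inhibitor's effect on the response. Between the responses of KO and WT, 19 genes were called with a pseudocount of 0.25, 76 without the filter, 10 in edgeR and 80 in DESeq2, against 45. DESeq2 called 2 genes for the inhibitor in untreated WT and 118 for its effect on the response.

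Leaving out 1 library at a time, calls over all genes were 477 to 548 between untreated KO and WT and 871 to 934 with LPS, 18 to 34 for the difference of their responses, 0 to 1 for the inhibitor in untreated WT, 59 to 96 after LPS and 30 to 54 for its effect on the response, against 1055, 1510, 45, 0, 121 and 64 with all libraries. Members called between KO and WT with LPS were 1 to 2, against 3.

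Signs changed for the following. The LPS difference of Il10rb was 0.08 (median of ratios), 0.10 (edgeR) and 0.13 (DESeq2) in WT, 0.04, 0.06 and 0.08 in WT with the inhibitor, and 0.00 (DESeq2) in KO. The deposited scaling gave -0.07 for Il10ra between untreated KO and WT, 0.00 for the interaction of KO and LPS on Ebi3 and 0.03 for that of the inhibitor and LPS on Il10rb. The interaction of the inhibitor and LPS was -0.30 in edgeR and -0.33 in DESeq2 for Il23a, and for Il27 it was 0.15 with a pseudocount of 0.25, 0.27 in edgeR and 0.26 in DESeq2. With 1 library left out, the difference between untreated KO and WT ranged from -0.02 to 0.06 for Il10, -0.16 to 0.20 for Il10ra and -0.02 to 0.02 for Il23a, and the interaction of KO and LPS from -0.11 to 0.08 for Ebi3. The inhibitor's effect in untreated WT ranged from 0.00 to 0.04 for Il10, -0.14 to 0.05 for Ebi3 and -0.27 to 0.23 for Il10ra, and after LPS from -0.06 to 0.15 for Il23a. The interaction of the inhibitor and LPS ranged from -0.33 to 0.17 for Il10ra, -0.07 to 0.04 for Il10rb, -0.07 to 0.13 for Il23a and -0.15 to 0.12 for Il27. None of these were called with all libraries except the LPS differences of Il10rb.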
